A study of Mus musculus with 2 samples.

Results

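The genes described here encode the CD3 chains of the T cell receptor complex and the kinases and adaptors that carry its first signal inside the cell. They were fixed by name as 9 genes, Cd3e, Cd3d, Cd3g, Cd247, Lck, Zap70, Lat, Lcp2 and Themis. The files list them among 30533 transcripts of 23296 named genes, of which 11095 genes had a mean of at least 1 RPKM. RPKM is the number of reads on a transcript divided by its length and by the depth of the library. All transcripts of the 9 genes were taken, 15 in all, and each gene was represented by the transcript whose mean over the Tg and WT libraries was highest. All 9 genes passed the minimum of 1 RPKM, the lowest of them with a mean of 119.98 RPKM.

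Whole thymus was sequenced from miR-146a transgenic (Tg) mice and from wild-type (WT) mice, all on the Balb/c strain and 5 to 6 weeks old. Each genotype gave 1 library, made from the mixed thymuses of 1 male and 1 female, and no other treatment is named for either genotype. The study describes the transgene as systemic, the Tg line came from another laboratory and the WT founders were bought, and descendants of both, raised in a single facility, were used, so the origin of the line and the genotype cannot be told apart. Variation between mice was not measured, since each genotype has 1 library, so genotypes were not tested against each other and every ratio below compares these libraries. Polyadenylated RNA was sequenced, so the mature miR-146a itself was not measured.

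On the T cell surface, the αβ receptor recognises peptide bound to MHC molecules but has no signalling tail of its own. The CD3 ε, δ and γ chains and the ζ dimer carry tyrosine motifs (ITAMs) that LCK phosphorylates, which recruits ZAP70, and ZAP70 then phosphorylates the adaptors LAT and SLP-76 (the product of Lcp2). In the thymus this signal drives positive and negative selection of CD4+CD8+ double-positive (DP) cells on their way to the CD4 or CD8 single-positive (SP) stage, and THEMIS, a T lineage protein, is needed for normal selection in mice.

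The 9 genes were among the most abundant of the thymus libraries, and by the deposited values no member differed by more than 1.5-fold between the Tg and WT libraries, although Cd3g did so with median centring or upper quartile scaling. Cd3g came closest, with a ratio of Tg over WT of 0.677, and Cd3d followed with 0.766, while the neighbouring Cd3e had 1.08. Lck had the highest ratio, 1.19. In all, 0 of 9 members were over 1.5-fold lower and 0 of 9 over 1.5-fold higher. Over all genes with a mean of at least 1 RPKM, 11% were over 1.5-fold lower and 7.74% over 1.5-fold higher, and over the 647 genes with a mean of at least 100 RPKM, a level that all 9 members exceed, 15.8% were lower and 4.17% higher. The median log2(Tg/WT) of the 9 members was 0.09, against 0.03 for all measured genes (quartiles -0.26 and 0.26) and -0.06 for the genes at 100 RPKM or more. The ratios of 5 members were above 1 and those of 4 below 1, and 7 of the 9 lay within 1.2-fold.

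Between 3680 and 15191 fragments stood behind each member's value in a library, out of 15396696 fragments in the Tg library and 14522669 in the WT library. The 95% intervals below are exact binomial (Clopper-Pearson) intervals of the ratio on these fragments and cover counting error only, not differences between mice. By counting error alone all 9 members had an interval that left out 1 at the deposited scaling, so depth was not what limited the comparison. The interval of Zap70 began at 1.02, and the shift made by median centring would bring 1 inside it.

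**Figure D1:**
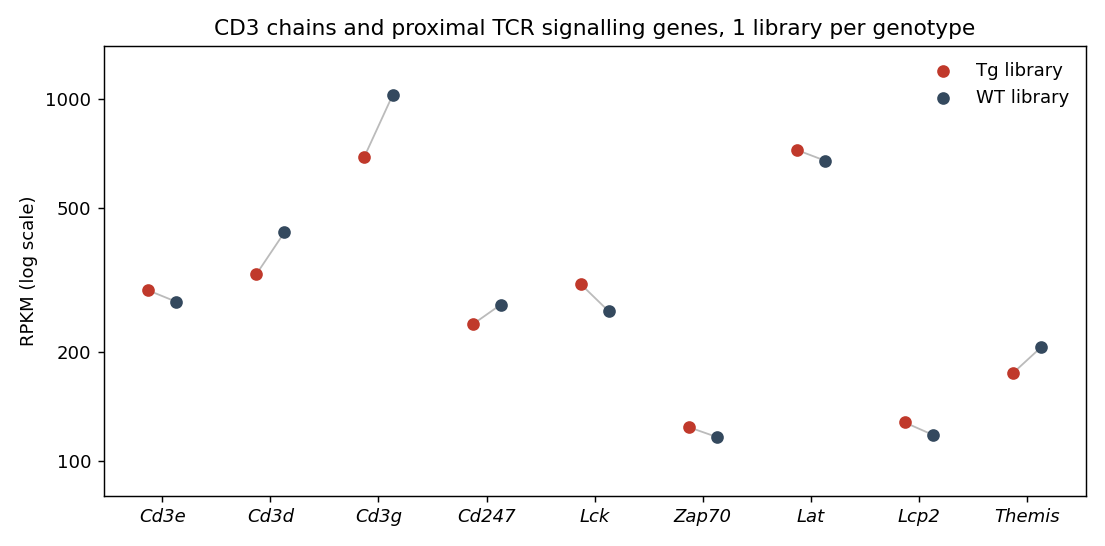
RPKM of the 9 genes on a log axis, with the Tg library as the left point and the WT library as the right point of each pair (1 library per genotype, so no error bar). The steepest lines belong to Cd3g (692 RPKM in the Tg library, 1023 RPKM in the WT library) and Cd3d (328 and 428 RPKM), and both run opposite to Cd3e and Lck.

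The levels had much the same order in both libraries. In the Tg library Lat led with 722 RPKM, followed by Cd3g with 692, Cd3d with 328, Lck with 308, Cd3e with 295, Cd247 with 238, Themis with 174, Lcp2 with 127 and Zap70 with 124 RPKM. In the WT library Cd3g led with 1023 RPKM, followed by Lat with 675, Cd3d with 428, Cd3e with 275, Cd247 with 270, Lck with 259, Themis with 205, Lcp2 with 118 and Zap70 with 116 RPKM. Cd3g and Lat thus exchanged the first place, and Lck stood above Cd3e and Cd247 in the Tg library and below both in the WT library. By exact Poisson intervals on the fragments, Lck and Cd3e in the Tg library, Cd3e, Cd247 and Lck in the WT library, and Lcp2 and Zap70 in both were neighbours whose intervals overlapped. Even the lowest member, Zap70, lay at percentile 95.5 of all measured genes by mean level, and Cd3g and Lat were at ranks 76 and 86 from the top.

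The genes of the CD3 γ, δ and ε chains lie side by side on chromosome 9 (GRCm38). Cd3g occupies chr9:44969572-44980431 on the minus strand, Cd3d chr9:44981769-44987052 on the plus strand and Cd3e chr9:44998735-45009663 on the minus strand. Cd3g and Cd3d point away from each other across 1337 bases, and 11682 bases separate Cd3d from Cd3e. The 250 bases before each RefSeq start (GRCm38.p6) are shown because the ratios of these neighbours differed, with the ETS core AGGAAG or its complement CTTCCT in capitals. The starts used for Cd3d and Cd3e lie inside the gene spans given above, so the last bases of both stretches fall within those spans. The ETS positions below are counted from the starts used.

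Cd3g (chr9:44980432-44980681, minus strand): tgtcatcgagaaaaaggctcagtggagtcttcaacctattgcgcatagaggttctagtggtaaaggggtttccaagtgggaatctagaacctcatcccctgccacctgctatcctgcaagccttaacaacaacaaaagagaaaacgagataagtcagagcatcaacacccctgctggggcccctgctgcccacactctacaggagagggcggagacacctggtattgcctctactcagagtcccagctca
Cd3d (chr9:44981536-44981785, plus strand): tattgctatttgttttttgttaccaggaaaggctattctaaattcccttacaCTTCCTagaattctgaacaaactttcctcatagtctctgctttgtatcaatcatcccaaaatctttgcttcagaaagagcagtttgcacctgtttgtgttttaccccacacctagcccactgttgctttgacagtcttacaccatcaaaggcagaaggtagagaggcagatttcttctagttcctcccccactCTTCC
Cd3e (chr9:45009612-45009861, minus strand): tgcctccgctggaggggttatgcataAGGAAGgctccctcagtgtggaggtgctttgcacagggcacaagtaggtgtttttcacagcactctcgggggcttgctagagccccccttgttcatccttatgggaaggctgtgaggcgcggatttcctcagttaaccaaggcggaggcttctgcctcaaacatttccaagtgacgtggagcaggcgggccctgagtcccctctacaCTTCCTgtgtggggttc

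In the windows of 250 bases before to 50 bases after the start, Cd3e held the ETS core at bases -224 and -17 and Cd3d at -198 and -5, the last of which runs over the start and is cut short in the line above. Cd3g held none. Over the 13 windows that the RefSeq table gives for the 9 genes, 9 windows of 7 genes held this core, all except those of Cd3g and Themis and 1 of Zap70, where 35.4% of 32851 windows of the same length did. An E-box (CANNTG, read on both strands since it is its own complement) was found in all 13 windows, against 72.3% of all windows. The RUNX core TGTGGT or its complement ACCACA was found in 3 windows, of Lck, Zap70 and Lat, against 16.8%, and TATAAA or TTTATA in 0, against 13.6%. Several genes have more than 1 window and some windows overlap. These are matches of letters only, and binding was not measured.

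Cd3g, the γ chain, stood at 692 RPKM in the Tg library and 1023 RPKM in the WT library, from 10906 Tg and 15191 WT fragments. Its ratio of 0.677 (95% interval 0.661 to 0.694) is a log2(Tg/WT) of -0.56, a 1.48-fold lower level in the Tg library. This lies just inside 1.5-fold, and with median centring (-0.59) or upper quartile scaling (-0.60) it passed it. Among all measured genes its ratio lay at percentile 11.5.

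Cd3d, the δ chain, stood at 328 RPKM in the Tg library and 428 RPKM in the WT library, from 6707 Tg and 8260 WT fragments. The ratio was 0.766 (0.742 to 0.791), or 1.31-fold lower in the Tg library, at percentile 18.0 of all measured genes. Cd3e, the ε chain, which pairs with either γ or δ, did not share this difference. It had 295 RPKM in the Tg library and 275 RPKM in the WT library, which is a ratio of 1.08 (1.04 to 1.11) from 6530 Tg and 5729 WT fragments.

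The balance of the chains therefore differed between the libraries. Within a library any common scaling cancels, and the RPKM of Cd3g over that of Cd3e was 2.34 in the Tg library and 3.72 in the WT library, a ratio of ratios of 0.630 (0.603 to 0.658). Cd3d over Cd3e was 1.11 in the Tg library and 1.56 in the WT library (0.712, interval 0.679 to 0.747). Cd3g over Cd3d differed less, with 2.11 in the Tg library and 2.39 in the WT library (0.884, interval 0.849 to 0.921). These intervals hold counting error only.

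Outside the cluster the nearest coding genes had other values. Ube4a, a ubiquitin ligase gene 3956 bases beyond Cd3g, had 25.2 RPKM in the Tg library and 20.5 RPKM in the WT library, a ratio of 1.23. Mpzl2, 32.68 kb beyond Cd3e, was low, with 2.40 RPKM in the Tg library and 1.03 RPKM in the WT library. The lower ratios of this stretch were thus found in Cd3g and Cd3d, and not in the genes that flank the cluster on either side.

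Short transcripts tended to have lower ratios in these libraries, and Cd3g, at 1023 bases, is the shortest of the 9 members. A running median of log2(Tg/WT) over genes ordered by length stood at -0.10 at the length of Cd3g and at -0.02 at that of Cd3d. With this trend subtracted, Cd3g had a log2(Tg/WT) of -0.46, Cd3d of -0.36 and Cd3e of 0.15, so the 3 chains kept their order. The median of the 9 members became 0.04.

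**Figure D2:**
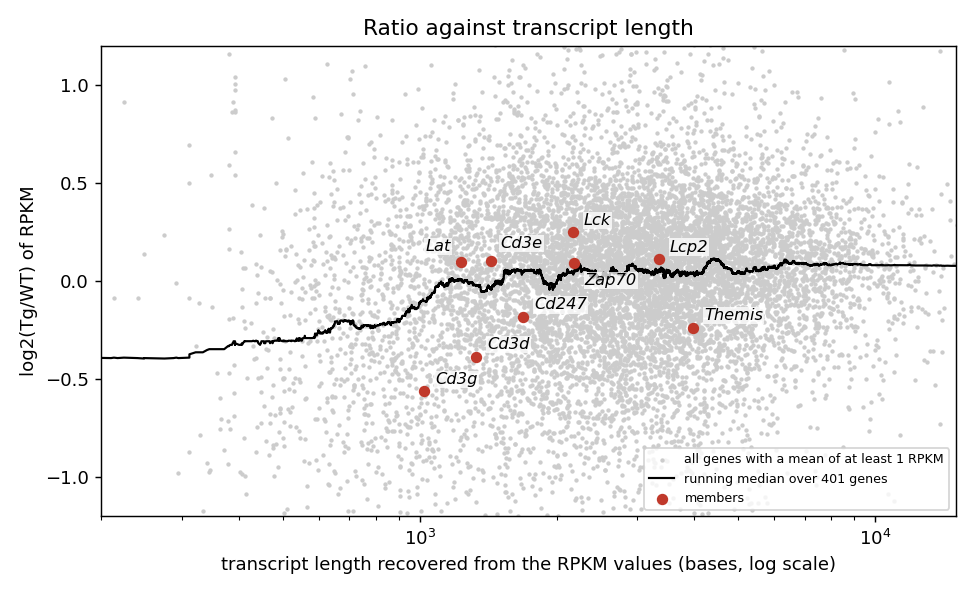
log2(Tg/WT) of RPKM against the transcript length recovered from the values (log axis), for all genes with a mean of at least 1 RPKM (grey), their running median along length (black) and the 9 members (red). The line runs below 0 for short transcripts, and Cd3g (-0.56) and Cd3d (-0.38) lie below it; genes beyond the axis are not drawn.

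Since the Tg mice overexpress miR-146a, the 3′ UTRs of the members were searched for matches to its seed, bases 2 to 8 of the mature miRNA, shown in capitals in the RefSeq sequence (chr11:43374435-43374456, minus strand, GRCm38.p6).

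miR-146a-5p: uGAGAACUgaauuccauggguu

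The 8-base match AGTTCTCA was found in the 3′ UTR of 0 of 9 members, against 3.86% of the 10227 measured genes with an annotated 3′ UTR. A 7-base match (AGTTCTC or GTTCTCA) was found in 1 member, Cd3g, where 18.0% of the searched genes held a 7- or 8-base match. The 6-base core GTTCTC was found in 3 members, Cd3g, Cd3e and Cd247, against 30.0%. The matches are shown in capitals within the surrounding bases, since that of Cd3g is longer than those of Cd3e and Cd247.

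Cd3g, 3′ UTR bases 233 to 239 of 363 (chr9:44969696-44969702): ccttgtttgggGTTCTCAgcaccccacc
Cd3e, 3′ UTR bases 66 to 71 of 791 (chr9:44999460-44999465): tgctactccttGTTCTCtggacagactg
Cd247, 3′ UTR bases 116 to 121 of 997 (chr1:165861185-165861190): tgacgaggatgGTTCTCtcacttgccac

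The member with the longest match, Cd3g, was also the one with the lowest ratio, whereas Cd3d, with the second lowest ratio, held none of these matches in a 3′ UTR of 995 bases. Cd3e and Cd247, which share the 6-base core, had ratios of 1.08 and 0.882. No match is known to be a site in these cells, and the part of any match in the ratios was not tested.

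Cd247 (chr1:165779952-165871153, plus strand) encodes the ζ chain, which carries more ITAMs than any other chain of the complex. Its main transcript, NM_001113391, stood at 238 RPKM in the Tg library and 270 RPKM in the WT library, a ratio of 0.882 (0.852 to 0.913) from 6173 Tg and 6602 WT fragments. Set against Cd3e, it was at 0.805 in the Tg library and 0.982 in the WT library (ratio of ratios 0.820, interval 0.781 to 0.862). Its distance from Cd3e was thus smaller than that of Cd3d or Cd3g. With both libraries rescaled to the same sum of RPKM the log2(Tg/WT) of Cd247 was -0.06, against -0.18 as deposited.

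The other 4 Cd247 transcripts were far less abundant, at 15.6 to 32.4 RPKM in the Tg library and 17.6 to 36.4 RPKM in the WT library. Their ratios, 0.798 to 0.890, were on the same side as that of the main form. The forms share exons, so they are not independent. The main form ends in a last exon of 1063 bases, and it had 5496 more fragments than NM_031162 in the Tg library and 5883 more in the WT library. Scaled to depth this excess had a ratio of 0.881, close to the 0.882 of the whole transcript. The Cd247 locus overlaps Pou2f1 on the opposite strand by 6004 bases, but the main form ends 3084 bases before it, and Pou2f1 was low, at 2.34 RPKM in the Tg library and 3.11 RPKM in the WT library. On its other side Creg1 had 8.44 RPKM in the Tg library and 11.3 RPKM in the WT library.

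Lck (chr4:129548344-129573641, minus strand) encodes the SRC family kinase that phosphorylates the ITAMs and ZAP70. Its main transcript, NM_010693, stood at 308 RPKM in the Tg library and 259 RPKM in the WT library. The ratio of 1.19 (1.16 to 1.22), from 10289 Tg and 8159 WT fragments, was the highest of the 9 members and lay at percentile 73.8 of all measured genes. Hdac1, the histone deacetylase gene 5697 bases away, had 245 RPKM in the Tg library and 244 RPKM in the WT library. Fam167b, on the other side, had 0.55 RPKM in the Tg library and 0.36 RPKM in the WT library.

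Lck is transcribed from a proximal start, known in mice for its use in immature thymocytes, and from a distal start 15.25 kb upstream, known for its use in mature T cells. The 250 bases before each start are shown because the files list transcripts from both, with the ETS core in capitals.

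Lck proximal (chr4:129558373-129558622, minus strand): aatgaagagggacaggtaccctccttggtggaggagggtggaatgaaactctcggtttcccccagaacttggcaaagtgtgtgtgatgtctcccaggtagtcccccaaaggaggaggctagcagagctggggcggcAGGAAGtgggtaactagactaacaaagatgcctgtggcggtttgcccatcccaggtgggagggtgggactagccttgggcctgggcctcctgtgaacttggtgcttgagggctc
Lck distal (chr4:129573642-129573891, minus strand): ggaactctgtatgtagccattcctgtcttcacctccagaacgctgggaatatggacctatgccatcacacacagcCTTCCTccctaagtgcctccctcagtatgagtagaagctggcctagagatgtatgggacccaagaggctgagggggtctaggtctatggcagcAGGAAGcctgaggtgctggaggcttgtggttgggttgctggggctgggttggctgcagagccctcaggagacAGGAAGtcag

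The proximal stretch holds the core at base -114, and the distal stretch at -175, -82 and -10. The distal transcript, NM_001162433, stood at 293.7 RPKM in the Tg library and 256 RPKM in the WT library, a ratio of 1.15 (1.11 to 1.18). The proximal spliced transcript, NM_001162432, had 285 RPKM in the Tg library and 241 RPKM in the WT library (1.18, interval 1.15 to 1.22). The main transcript begins slightly upstream of the proximal start used above, at base 129558391 against 129558372, and keeps an intron of 97 bases. The last bases of the proximal stretch therefore lie within its first exon. The distance of 15.25 kb to the distal start is counted from the main transcript.

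These 3 forms share all but their first exons, so nearly all of their fragments are the same ones, and the differences between them are given here. The distal form has a first exon of 127 bases and the proximal spliced form one of 85 bases. The distal form exceeded the proximal spliced form by 461 fragments in the Tg library and 608 in the WT library, which scaled to depth is a ratio of 0.715. The form with the retained intron exceeded the spliced one by 1182 fragments in the Tg library and 892 in the WT library, and scaled to depth this excess was larger in the Tg library. The excess of the distal form was thus smaller in the Tg library, although each whole transcript had a ratio above 1. As a difference between forms, this excess cannot tell less use of the distal start from more use of the proximal start. How the authors' counting assigned fragments that match several forms is not given in the sources used here, so these differences are descriptions without an interval.

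**Figure D3:**
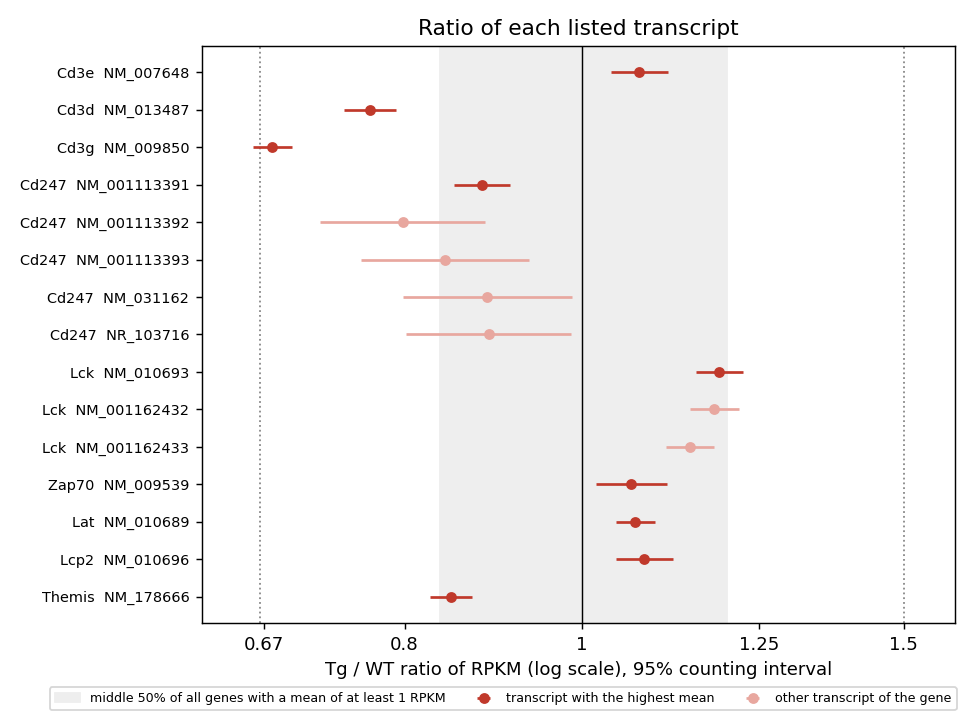
Tg over WT ratio of RPKM for each of the 15 listed transcripts of the 9 genes (log axis), with exact binomial 95% intervals for counting error; dotted lines mark 1.5-fold and the grey band the middle 50% of all genes with a mean of at least 1 RPKM. Cd3g (0.677) and Cd3d (0.766) lie left of the band, as does the minor Cd247 form NM_001113392 (0.798), and all transcripts of Cd247 lie to the left of 1 and those of Lck to the right of 1.

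Zap70 (chr1:36761798-36782821, plus strand) encodes the SYK family kinase that binds the phosphorylated ITAMs. It stood at 124 RPKM in the Tg library and 116 RPKM in the WT library, a ratio of 1.06 (1.02 to 1.11) from 4153 Tg and 3680 WT fragments. As deposited this was the smallest difference of the 9 members, but with both libraries rescaled to the same sum Cd247 (log2 of -0.06) and Themis (-0.12) differed less than Zap70 (0.21). The RPKM of Zap70 over that of Lck was 0.402 in the Tg library and 0.449 in the WT library, a ratio of ratios of 0.895 (0.849 to 0.944). The gene at its side, Tmem131, had 34.0 RPKM in the Tg library and 26.7 RPKM in the WT library.

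Lat (chr7:126363827-126369705, minus strand) encodes the transmembrane adaptor on which the signalling complex of PLCγ, GRB2 and SLP-76 is built. It stood at 722 RPKM in the Tg library and 675 RPKM in the WT library, with a ratio of 1.07 (1.04 to 1.10) from 13724 Tg and 12098 WT fragments. Its neighbours on either side were far lower, and Spns1, 354 bases away on the same strand, had 17.5 RPKM in the Tg library and 12.7 RPKM in the WT library. Sbk1 had 32.2 RPKM in the Tg library and 29.4 RPKM in the WT library.

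Lcp2 (chr11:34046928-34092281, plus strand) encodes SLP-76, the cytosolic adaptor that joins LAT through GADS. It stood at 127 RPKM in the Tg library and 118 RPKM in the WT library, a ratio of 1.08 (1.04 to 1.12) from 6572 Tg and 5728 WT fragments. Lcp2 and Lat had nearly the same ratio, and Lcp2 over Lat was 0.177 in the Tg library and 0.175 in the WT library (ratio of ratios 1.01, interval 0.969 to 1.06). This was the only pair of those compared whose interval included 1.

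Themis (chr10:28668360-28883820, plus strand) encodes the selection factor that binds GRB2 and acts together with the phosphatase SHP1. It stood at 174 RPKM in the Tg library and 205 RPKM in the WT library, a ratio of 0.849 (0.827 to 0.871), from 10686 fragments in the Tg library and 11878 in the WT library. Themis over Lat was 0.241 in the Tg library and 0.304 in the WT library (ratio of ratios 0.793, interval 0.765 to 0.822). Among Lck, Zap70, Lat, Lcp2 and Themis, only Themis had a ratio below 1. Ptprk, the next coding gene, had 1.57 RPKM in the Tg library and 1.56 RPKM in the WT library. The lengths recovered for Themis, Cd3d and Lcp2 (3981, 1330 and 3348 bases) differ from those of GENCODE (5082, 1617 and 3644 bases), so their levels relative to other genes rest on the length that the authors used. The Tg over WT ratio of a gene does not depend on it, but its counting interval does.

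The other genes of the pathway gave a similar picture. Of 72 listed genes in 7 groups, 67 had a mean of at least 1 RPKM, and of these 2 were over 1.5-fold lower, 1 was over 1.5-fold higher and 64 lay within 1.5-fold, where 11% of all measured genes were lower and 7.74% higher. Their median log2(Tg/WT) was -0.04, against 0.03 over all measured genes. Of the chains of the αβ and γδ receptors and the pre-TCR, the files gave a value for Ptcra alone, the pre-TCR α chain of double-negative (DN) cells, with 17.3 RPKM in the Tg library and 10.7 RPKM in the WT library (1.62). The constant chains of the receptor were not analysed here.

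Among the co-receptors, which bring LCK to the receptor, all 3 lay within 1.5-fold, with a median log2(Tg/WT) of 0.17. Cd8b1, the CD8 β chain, had 1063 RPKM in the Tg library and 945 RPKM in the WT library, and Cd4 had 443 and 414 RPKM in the Tg and WT libraries. All 7 other kinases around the receptor lay within 1.5-fold as well, with a median of -0.17. Csk, the kinase that holds LCK inactive, had 138 RPKM in the Tg library and 131 RPKM in the WT library.

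All 20 other adaptors lay within 1.5-fold, with a median log2(Tg/WT) of -0.01 and a range of -0.56 to 0.42. The most abundant of them were toward the lower end. Sh2d1a, which encodes the SLAM adaptor SAP, had 237 RPKM in the Tg library and 328 RPKM in the WT library. Trat1, a transmembrane protein that associates with the receptor complex, had 154 RPKM in the Tg library and 205 RPKM in the WT library. All 16 enzymes and exchange factors downstream of LAT lay within 1.5-fold (median -0.04). Dgka, a diacylglycerol kinase that dampens the RAS branch, had 235 RPKM in the Tg library and 292 RPKM in the WT library, and Rasgrp1, which activates RAS, had 130 RPKM in the Tg library and 133 RPKM in the WT library.

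Both genes over 1.5-fold lower belonged to the list of inhibitors of the signal, 2 of 16 measured, a share near the 11% of all measured genes (list median log2(Tg/WT) of -0.07). Dok2, an adaptor that recruits negative regulators, had 67.3 RPKM in the Tg library and 111 RPKM in the WT library (0.608). Ubash3b, a phosphatase that acts on ZAP70, was low in both, with 1.34 RPKM in the Tg library and 3.52 RPKM in the WT library (0.381). The most abundant inhibitors showed little difference. Cd5 had 176 RPKM in the Tg library and 168 RPKM in the WT library, and the adaptor Sla had 143 RPKM in the Tg library and 146 RPKM in the WT library. The 4 genes of CD45 and accessory receptors lay within 1.5-fold (median -0.25), among them Ptprcap, the CD45-associated protein, with 485 RPKM in the Tg library and 497 RPKM in the WT library, and the adhesion receptor Cd2, with 234 RPKM in the Tg library and 321 RPKM in the WT library.

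**Figure D4:**
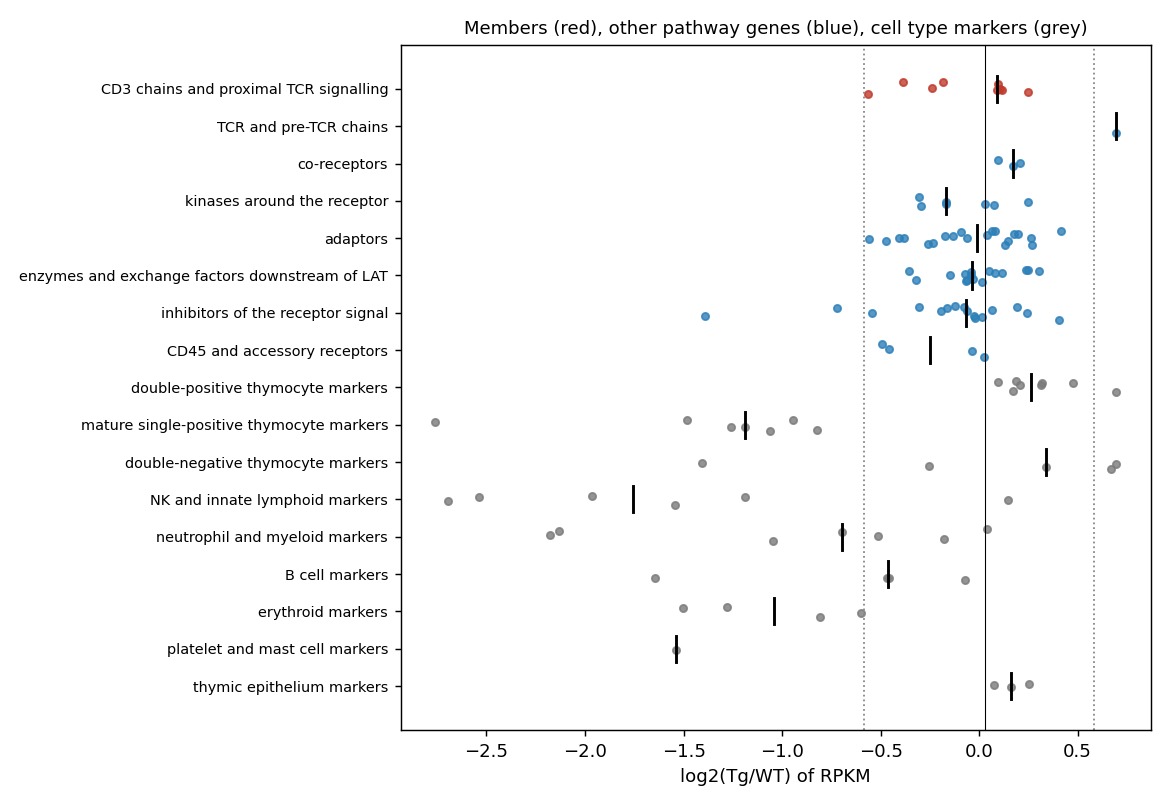
log2(Tg/WT) of each measured gene in the lists, with the 9 members in red at the top, other pathway genes in blue and cell type markers in grey; black bars are list medians, dotted lines mark 1.5-fold and the thin line is the median of all measured genes (0.03). The members and pathway genes lie mostly between the dotted lines, while the markers of mature SP cells (median -1.19) and of NK and innate lymphoid cells (-1.75) lie to the left.

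In whole thymus a lower value can come from fewer cells of a type or from less RNA per cell, and these cannot be told apart here. Markers of other stages and cell types did differ between the libraries. Their lists were chosen with earlier results of these data known, and Il7r is among the genes that the paper reported as lower. The counts are therefore descriptions only. Over all measured genes 11% were over 1.5-fold lower and 7.74% over 1.5-fold higher. DP markers were abundant in both, led by Cd8b1 (above) and Rag1, with 514 RPKM in the Tg library and 413 RPKM in the WT library. Of these 8 markers 7 lay within 1.5-fold and Arpp21 was higher (39.5 RPKM in the Tg library, 24.4 RPKM in the WT library), with a median log2(Tg/WT) of 0.26 and summed levels of 3180 RPKM in the Tg library and 2691 RPKM in the WT library. All 7 markers of mature SP thymocytes, among them Ccr7, S1pr1, Klf2, Il7r, Cd52 and Ms4a4b, were over 1.5-fold lower, with a median of -1.19 and sums of 370 RPKM in the Tg library and 945 RPKM in the WT library. Of 5 measured DN markers Ptcra and Notch3 were higher and Il2rb was lower, with a median of 0.34. Their sums of 47.3 RPKM in the Tg library and 53.7 RPKM in the WT library went the other way through Il2rb, which had 10.5 RPKM in the Tg library and 27.9 RPKM in the WT library. Mature SP cells, like DP cells, express the 9 members, and the part of this shift in the ratios of Cd3g, Cd3d, Cd247 and Themis was not tested.

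Markers of other cell types were mostly lower in the Tg library. These lists too were chosen with earlier results known, and 11% of all measured genes were over 1.5-fold lower. Markers of NK and innate lymphoid cells, which can themselves express several of the members, summed to 22.1 RPKM in the Tg library and 73.3 RPKM in the WT library, and 5 of 6 measured (Ncr1, Klrd1, Eomes, Nkg7 and Il18r1) were over 1.5-fold lower. Neutrophil and myeloid markers summed to 152 RPKM in the Tg library and 539.8 RPKM in the WT library. Of these 7 genes 4 were lower (S100a8, S100a9, Lyz2 and Tyrobp), and Csf1r, Itgam and Spi1 lay within 1.5-fold. In the WT library this sum of 7 genes exceeded the level of every single member except Cd3g and Lat. Most of the WT sum came from S100a8 (309 RPKM) and S100a9 (151 RPKM). Erythroid markers summed to 93.4 RPKM in the Tg library and 171 RPKM in the WT library, with all 4 measured globin genes lower (Hba-a1, Hba-a2, Hbb-bs and Hbb-bt, whose near-identical copies make their reads uncertain). B cell markers summed to 21.4 RPKM in the Tg library and 29.2 RPKM in the WT library, with Ms4a1 lower and Cd79a and Cd79b within 1.5-fold. Of the platelet and mast cell markers, Cpa3 alone was measured and was lower, and Ppbp had no fragments in either library. Thymic epithelium markers were near 0 in part (Foxn1, Krt5 and Krt8 under 1 RPKM), and the 3 measured (Ly75, Psmb11 and Epcam) lay within 1.5-fold. The part of these cells in the members' ratios was not tested.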

How the data were processed

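Thymus RNA of 1 Tg and 1 WT library was analysed. The authors purified mRNA on oligo(dT) beads and sequenced it on an Illumina machine; reads were mapped with a program spelled HotHap2, and those mapping uniquely were counted. They deposited RPKM values, although the paper's text describes fragments (FPKM). The submitters' processing notes name build mm10, and the strand setting is not given in the sources used here.

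Symbols for 98.9% of 30533 transcripts came from RefSeq (GRCm38.p6) and GENCODE M21. The deposited RPKM gave back whole reads for 100% of values (relative tolerance 1e-12), with 30793392 reads in the Tg library and 29045338 in the WT library. They were even in 100% of the values of 4969 transcripts whose recovered length equals that in GENCODE, so 2 reads were taken as 1 fragment. Transcripts without reads are listed at the value of 1 read, and a floor of 3 fragments applies to such values. No count test was run, since it would compare libraries and not genotypes. Ratios carry no pseudocount. A gene was measured at a mean of at least 1 RPKM and counted as different past 1.5-fold.

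The members and lists were chosen with earlier results of these data known. Named were the members, the coding genes next to them (those near 0 are left out, except Fam167b), and in each list the genes past 1.5-fold and the 2 with the highest mean. Results for some genes that this rule selected are left out of the text. Alternatives were median centring, upper quartile scaling, rescaling to the same sum, subtraction of a length trend, sums or means of transcripts, pseudocounts of 1 and 0.1, a fold threshold below 1.5 and one of 2, and minimum means of 5 and 10 RPKM or none. The minimum mean of 100 RPKM was chosen after seeing the data. Read recovery and intervals were tested on simulated data with the transcript lengths supplied, so the choice of length was not tested. Python 3.11.15, numpy 2.4.6, pandas 2.3.3, scipy 1.17.1 and matplotlib 3.10.9 were used.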

Additional observations from a re-analysis of the deposited data

How the results depend on the processing

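The sign of each member's log2(Tg/WT) was the same under the 8 alternatives run for it. Of 72 member values under alternatives, 15 lay outside the member's own counting interval. These included the values of all members with both libraries rescaled to the same sum. The median over the members was 0.21 with both libraries rescaled to the same sum, which moved the median of all measured genes by 0.12, to 0.15. Cd3g was the 1 member over 1.5-fold lower with median centring (1 of 9) and with upper quartile scaling (1 of 9). Cd3g and Cd3d were the 2 members lower past the fold threshold set below 1.5. The share of all measured genes past that threshold was not computed, so whether 2 of 9 differs from it cannot be judged. By ratio, Cd3g lay at percentile 11.5 and Cd3d at percentile 18.0 of all measured genes. No member was over 1.5-fold higher under the alternatives run. Cd3g ranged from -0.60 to -0.44, Cd3d from -0.42 to -0.26, Lck from 0.21 to 0.37, Cd3e from 0.07 to 0.23 and Zap70 from 0.04 to 0.21. The share of all measured genes over 1.5-fold higher was 11.8% with both libraries rescaled to the same sum (7.93% lower), against 7.74% as deposited. Of 70 medians of pathway lists under alternatives, 7 were counted as moved past the spread within the list. For 6 of them the only measured gene of the list is Ptcra (0.65 to 0.82), which has no spread, so any change was counted. The remaining 1 was for the co-receptors (0.29 with the same sum).

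No paired analysis was possible because each genotype has 1 library, and for the same reason no replicate was left out. Depth did not limit the members, but differences between mice were not measured.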
